A study of Mus musculus with 9 samples.

Results

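Axon guidance ligands and their receptors were followed through 3 states of cultured mouse cells that model the epiblast, the embryonic tissue from which the body is made. The members were all gene symbols in the count table that name an Eph receptor, an ephrin, a semaphorin, a plexin, a neuropilin, a Slit, a Robo receptor, a netrin, an Unc5 receptor or Dcc. The rule uses names alone and gave 69 of the 23453 symbols listed, 35 ligands and 34 receptors. They were 14 Eph receptors, 8 ephrins, 20 semaphorins, 11 plexins and neuropilins, 7 Slit and Robo genes and 9 netrins and netrin receptors.

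These families were first known for steering growing axons, and each works through a ligand on one cell or in the matrix and a receptor on another. Ephrins are tethered to the membrane and bind Eph receptor tyrosine kinases on neighbouring cells, so that both cells can be signalled to at once. Semaphorins bind plexins, directly or with a neuropilin as partner, Slits bind Robo receptors, and netrins bind Dcc, which mostly attracts, or Unc5 receptors, which mostly repel. The same molecules act outside the nervous system in cell sorting, boundary formation, migration and vessel growth, also while the embryo gastrulates.

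EpiLC libraries came from naive ESCs cultured for 48 h in N2B27 medium with 1% KSR (a serum replacement), FGF2 and Activin A. For aEpiLC libraries, named for the anterior epiblast, EpiLCs were kept for 24 h more in basal N2B27 medium, to which the study's methods add KSR. For pEpiLC libraries, named for the posterior epiblast, they were kept for 24 h more with Activin and CHIR99021, which activates Wnt/β-catenin signalling. Each state had 3 libraries, 9 in all. The study describes the cells of its RNA-seq comparison between aEpiLC and pEpiLC as wild-type. The labels give the tissue as embryo although the cells were grown in culture, and the sources used here name no cell line for these libraries. Nothing says that the replicates of a state were separate cultures, so p-values measure only the spread between these samples.

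Total counts per library lay between 20560564 and 23417917. At this depth 3 counts, taken as the detection limit, corresponded to 0.130 to 0.143 CPM (counts scaled to library size, TMM-normalized over the 9 libraries), and such limits cover counting error only. Epiblast markers were present in every library, with a summed level of 4757 to 5061 CPM in EpiLC, 4476 to 4673 in aEpiLC and 1967 to 3232 in pEpiLC for the 8 genes listed. The summed level of 8 primitive streak and mesoderm markers was 507 to 2674 CPM in pEpiLC and 4.85 to 9.52 CPM in the other states. The pEpiLC library of replicate 1 held the highest of these values and stood apart. In it 323 and 333 genes differed more than 4-fold from the other pEpiLC libraries, against 57 to 76 genes for any other pair within a state. Of the 63 members with enough counts over the 9 libraries, 19 and 22 differed more than 2-fold between replicate 1 and replicates 2 and 3 of pEpiLC, whereas 4 did so between replicates 2 and 3 and 2 or 3 between libraries of the other states. Replicate 1 was the highest pEpiLC library for 42 of the 63 and the lowest for 12. Values without it are therefore given beside the called members whose call or fold change it moved most.

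States were compared in pairs with edgeR's quasi-likelihood test. A gene was called when its Benjamini-Hochberg adjusted p, over all genes tested, was below 0.05 and its log2 fold change was at least 1 in size. Of the 69 members, 63 had enough counts to be tested in at least 1 comparison and 55 in all 3. In total 31 members were called at least once, where 21.6% of all genes tested at least once were, and 38 in none. Of the 55 tested throughout, 4 (Epha1, Epha7, Nrp2 and Ntn1) were called in all 3 comparisons, beside 0.907% of all genes. Robo2 in both of its calls, Unc5d in both of its calls and Sema6d in aEpiLC against EpiLC reached the CPM that the filter on low counts requires in libraries of the higher state alone. Members that pass in this way had to differ, so these 5 calls enter the counts but are described by levels only. Ntn4 and Robo4 in aEpiLC against EpiLC and Sema3d in both of its calls reached that CPM in 1 EpiLC library. Ntn1 reached it in 2 EpiLC libraries. The EpiLC libraries alone would not have passed these members, so the filter favoured a higher later state, and their p-values against EpiLC carry this limit. In aEpiLC against EpiLC, 17 of 60 tested members were called higher and 2 lower. That is 31.7% of those tested, beside 12.5% of all genes, which divides into 7.25% called higher and 5.24% called lower. In pEpiLC against EpiLC, 17 of 58 were called higher and 3 lower, 34.5% beside 15.8% of all genes (7.71% higher, 8.13% lower). In pEpiLC against aEpiLC, 8 of 60 were called higher and 7 lower, 25% beside 7.29% of all genes (2.55% higher, 4.74% lower). Changes from EpiLC among members were thus mostly increases, while the later states differed from each other in both directions. On the adjusted p alone, 30 members were higher and 9 lower in aEpiLC against EpiLC (46.6% of all genes passed in either direction), 21 and 8 in pEpiLC against EpiLC (44.2%) and 12 and 12 in pEpiLC against aEpiLC (15.6%).

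The median log2 fold change of the members was 0.40 in aEpiLC against EpiLC, 0.49 in pEpiLC against EpiLC and 0.10 in pEpiLC against aEpiLC, where that of all genes tested lay between 0.00 and 0.02. Their median size regardless of sign was 0.63, 0.72 and 0.55, against 0.29, 0.35 and 0.22 for all genes. A lack of overlap between the libraries of both states was common among all genes and is no result about the members by itself. It held for 41 of 60 in aEpiLC against EpiLC, 35 of 58 in pEpiLC against EpiLC and 28 of 60 in pEpiLC against aEpiLC, where 56.3%, 58.7% and 38.8% of all genes did not overlap, so that the members' share was near the background in pEpiLC against EpiLC and above it in the other comparisons. Both comparisons with EpiLC share its 3 libraries, so their calls are given side by side and their overlap is not read as a result. These are bulk libraries, in which fewer cells expressing a gene and less RNA per cell cannot be told apart.

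**Figure D1:**
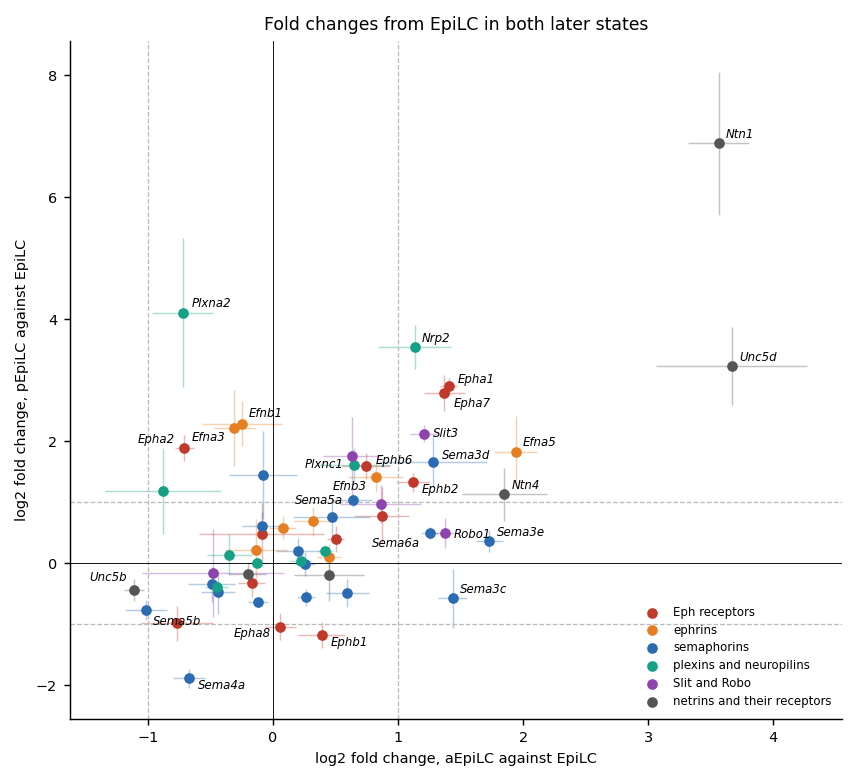
Log2 fold change of each member tested in both comparisons with EpiLC, aEpiLC on the horizontal and pEpiLC on the vertical axis, with bars of 1 standard error, colours for the 6 families and dashed lines at a log2 fold change of 1 in size. Members called in either comparison are named. Ntn1 lies far from the rest at 3.56 and 6.89, Plxna2 and Epha2 are raised on the vertical axis alone, and Sema3c is raised on the horizontal axis alone.

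For 59 of the 69 members, RefSeq (GRCm38.p6) gave 75 windows from 250 bases before to 50 bases after a transcription start. Their median was 19 CpG dinucleotides and 64.3% GC, against 7 and 52.7% over 32851 windows of all genes. Because pEpiLC medium activates Wnt signalling, the letters CTTTGAT, a core that TCF/LEF factors can bind, were searched on both strands. They occurred in 1 of the 75 windows (1.33%), that of Nrp2, and in 3.73% of all windows. A match is a description of the letters and not of binding. The windows of Nrp2, Epha1 and Epha7 are shown because these genes were called in all 3 comparisons, and that of Sema3e because among semaphorins with a mean of at least 5 CPM it had the largest fold change in aEpiLC against EpiLC, and was called lower in pEpiLC than in aEpiLC. Ntn1, also called in all 3, was among the members without a window, so the letters were not searched there. Bases within the annotated gene were left out. For Nrp2 (chr1:62703067-62703284, plus strand) capitals mark the TCF/LEF letters, which start 146 bases before the transcription start. For Epha1 (chr6:42373269-42373518, minus strand), Epha7 (chr4:28812881-28813130, plus strand) and Sema3e (chr5:14025026-14025275, plus strand) they mark CpG dinucleotides, of which these stretches hold 9, 25 and 7.
Nrp2: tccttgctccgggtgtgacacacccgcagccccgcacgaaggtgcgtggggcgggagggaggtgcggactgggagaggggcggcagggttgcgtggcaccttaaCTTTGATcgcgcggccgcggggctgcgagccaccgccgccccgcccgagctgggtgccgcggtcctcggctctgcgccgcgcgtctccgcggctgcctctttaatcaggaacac
Epha1: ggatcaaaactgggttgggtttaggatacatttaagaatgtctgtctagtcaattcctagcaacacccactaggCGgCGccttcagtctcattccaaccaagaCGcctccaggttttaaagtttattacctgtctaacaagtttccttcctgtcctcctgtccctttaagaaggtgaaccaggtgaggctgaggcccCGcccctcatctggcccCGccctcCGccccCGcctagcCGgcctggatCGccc
Epha7: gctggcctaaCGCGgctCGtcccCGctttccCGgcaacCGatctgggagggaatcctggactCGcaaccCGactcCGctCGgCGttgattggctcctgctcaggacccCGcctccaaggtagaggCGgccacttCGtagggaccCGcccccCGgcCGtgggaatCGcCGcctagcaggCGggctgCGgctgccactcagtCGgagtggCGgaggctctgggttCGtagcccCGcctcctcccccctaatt
Sema3e: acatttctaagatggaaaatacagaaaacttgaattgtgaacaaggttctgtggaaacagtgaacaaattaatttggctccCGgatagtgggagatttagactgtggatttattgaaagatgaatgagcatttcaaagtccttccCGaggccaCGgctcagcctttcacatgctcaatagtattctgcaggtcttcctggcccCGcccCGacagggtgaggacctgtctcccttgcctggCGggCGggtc

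Levels of different genes were compared per kilobase of annotated exon, as the mean CPM per kb over the 9 libraries. Averaged in this way, the highest levels were those of receptors, but the order differed between states. Epha1 had 39.5, Plxna1 30.3, Epha2 24.8, Ephb4 19.1, Unc5b 18.8 and Plxnb2 17.9 CPM per kb. In EpiLC the highest were Plxna1 (31.3), Unc5b (25.8) and Plxnb2 (15.5), and Epha1 had 10.8 CPM per kb. In aEpiLC Plxna1 (28.7) and Epha1 (28.5) were followed by the ligand Sema6a (25.4), and in pEpiLC Epha1 (79.1), Epha2 (51.7) and Plxna1 (30.9) led. Among ligands, Sema6a was highest in EpiLC (10.7) and aEpiLC, while in pEpiLC Slit3 (15.3) and Sema6a (14.9) were close, and Slit3 had 3.56 in EpiLC. Over the 9 libraries Sema6a stood first with 17, followed by Efna4 with 9.72, Slit3 with 9.03, Sema4c with 7.45 and Efnb2 with 7.17 CPM per kb. Summed over all members, receptors held 977 to 1027 CPM in EpiLC, 1009 to 1156 in aEpiLC and 1320 to 1980 in pEpiLC, while ligands held 421 to 432, 643 to 725 and 532 to 819 CPM. The ranges of receptors in EpiLC and aEpiLC overlapped, and in pEpiLC the highest value of both sums was that of replicate 1.

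**Figure D2:**
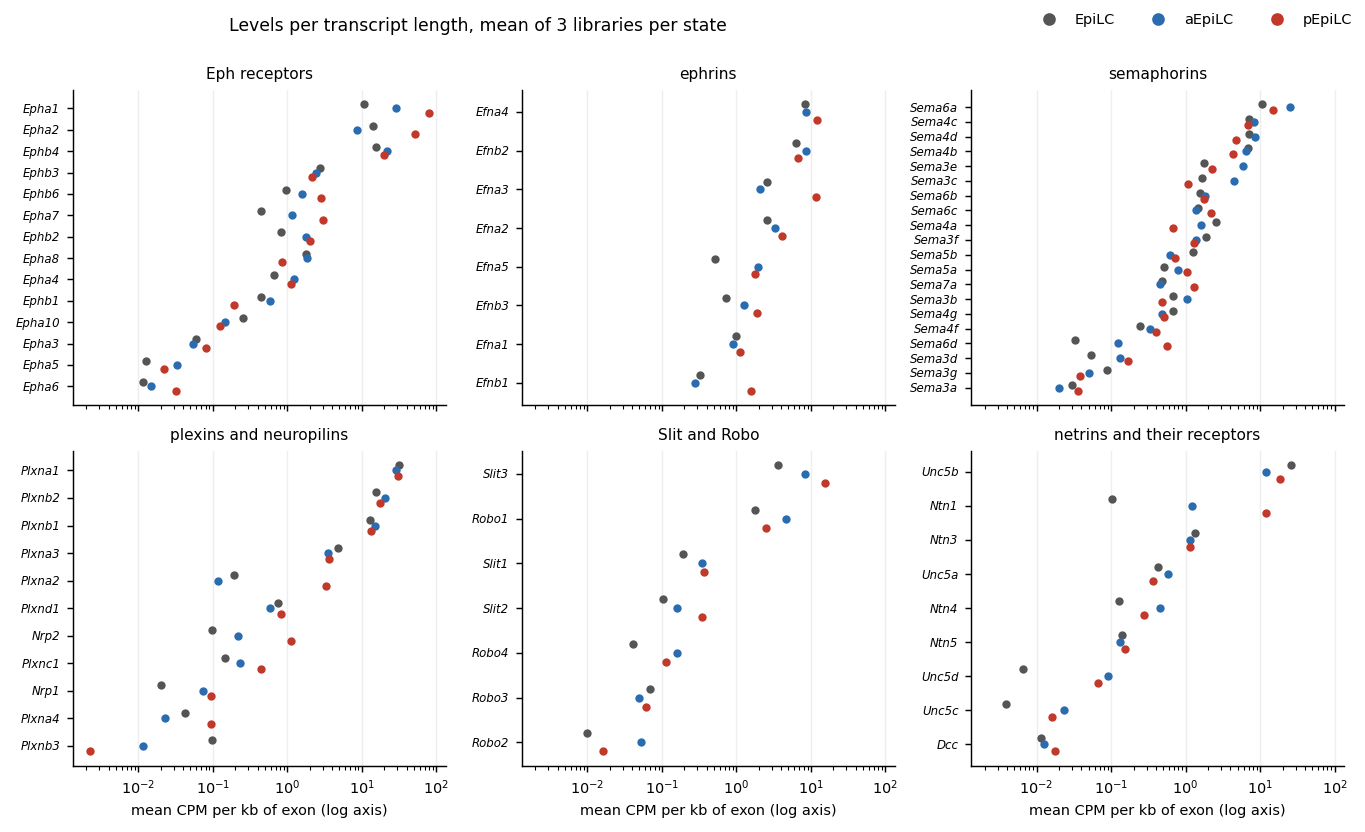
Mean CPM per kb of exon in each state (points, 3 libraries each, log axis) for all 69 members by family, ordered by their mean over the 9 libraries. Epha1, Plxna1 and Epha2 are among the highest, while Ntn1 spans 0.102 in EpiLC to 12.0 in pEpiLC (3.35 without replicate 1) and Plxna1 stays between 28.7 and 31.3.

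Among Eph receptors, which are kinases that read ephrins on adjoining cells, 3 of 12 tested were called in aEpiLC against EpiLC, all of them higher (25%, beside 12.5% of all genes). In pEpiLC against EpiLC 5 were called higher and 2 lower (58.3%, beside 15.8%). The summed level of the family was 233 to 241 CPM in EpiLC, 322 to 349 in aEpiLC and 597 to 968 in pEpiLC, so that no state overlapped another. Epha1, Epha2 and Ephb4 made up most of it.

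Epha1 (chr6:42358487-42373268) is the founding Eph receptor. It had 44.9, 41.6 and 40.6 CPM in EpiLC replicates 1, 2 and 3, 105, 117 and 113 in aEpiLC and 378, 287 and 267 in pEpiLC, in the order of replicates that is kept for all values here. The states followed each other without overlap. The log2 fold change against EpiLC was 1.40 ± 0.07 (standard error, adjusted p = 6.83e-09) in aEpiLC and 2.90 ± 0.14 (adjusted p = 2.30e-05) in pEpiLC, and pEpiLC exceeded aEpiLC by 1.47 ± 0.13 (adjusted p = 6.35e-04). Its exons overlap those of Zyx, which encodes the focal adhesion protein zyxin on the opposite strand and had a mean of 67.3, 119 and 143 CPM in EpiLC, aEpiLC and pEpiLC. Strand use in counting is not given in the sources used here, so reads from the shared stretch could count for either gene. In all, 18 of the 69 members share exon bases with another annotated gene, 15 of them on the opposite strand and 4 on their own, with Ntn3 in both counts. Among called members this holds for Efna3 with Gm15998, which had 0.225 to 0.620 CPM, and for Ephb1 with Gm26846, while Sema4a and Plxnc1 share exon bases with Mir7011 and Gm48718 on their own strand.

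Epha2 (chr4:141301240-141329384), an epithelial receptor for ephrin-A ligands, was called higher in pEpiLC than in both other states. It had 71.5, 60.2 and 67.4 CPM in EpiLC, 41, 42.1 and 38.4 in aEpiLC and 329.9, 214 and 180.4 in pEpiLC. All pEpiLC libraries were above and all aEpiLC libraries below those of EpiLC. The increase in pEpiLC was 1.89 ± 0.21 on the log2 scale (adjusted p = 6.25e-04), and the difference from aEpiLC was 2.58 ± 0.21 (adjusted p = 4.48e-04). Between aEpiLC and EpiLC the log2 fold change of -0.71 ± 0.08 was short of the limit on size (adjusted p = 6.68e-06).

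Epha7 (chr4:28813131-28967499), which acts with ephrin-A5 in closing the neural tube, rose in steps. Its values were 4.94, 3.87 and 4.39 CPM in EpiLC, 13.6, 11.1 and 9.47 in aEpiLC and 44.9, 22.8 and 22.3 in pEpiLC, with no overlap between any states. Log2 fold changes were 1.37 ± 0.16 for aEpiLC (adjusted p = 1.69e-05) and 2.79 ± 0.30 for pEpiLC (adjusted p = 5.35e-04) against EpiLC, and 1.40 ± 0.29 between them (adjusted p = 0.0192). The last fell to 0.99 without replicate 1 of pEpiLC, just under the limit on size, and its adjusted p reached 0.0860 without an aEpiLC library. Ephb2 (chr4:136647539-136835988), a receptor for ephrin-B ligands, had 8.86, 12.2 and 9.89 CPM in EpiLC, 20.9, 25.4 and 20.8 in aEpiLC and 29.3, 24.2 and 22.9 in pEpiLC. Both later states lay above EpiLC, by 1.12 ± 0.13 (adjusted p = 1.60e-05) and 1.32 ± 0.16 (adjusted p = 7.61e-04), and their libraries overlapped each other. Ephb6, whose kinase domain is inactive, had 3.54, 3.06 and 4.13, 6.76, 6.57 and 4.69 and 13.6, 9.47 and 9.01 CPM in the 3 states. It was called in pEpiLC against EpiLC (1.60 ± 0.21, adjusted p = 0.00121), and in the other comparisons its log2 fold change was below 1.

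Epha8 and Ephb1 were called lower in pEpiLC. Ephb1, which at the optic chiasm turns axons back, had 2.89, 2.97 and 3.43 CPM in EpiLC, 3.94, 4.68 and 3.54 in aEpiLC and 1.43, 1.17 and 1.42 in pEpiLC, whose libraries lay below all others. Its log2 fold change was -1.18 ± 0.22 against EpiLC (adjusted p = 0.00423) and -1.59 ± 0.23 against aEpiLC (adjusted p = 0.00438). Epha8 had 8.16, 8.15 and 8.66, 8.40, 8.28 and 9.29 and 2.81, 4.13 and 5.01 CPM, and its changes of -1.04 ± 0.22 and -1.12 ± 0.22 (adjusted p = 0.00713 and 0.0152) became -0.84 and -0.92 without replicate 1, which left it uncalled. The Epha8 call against aEpiLC was also lost without any single aEpiLC library, with an adjusted p of up to 0.0707. Of the abundant receptors, Ephb4, the partner of ephrin-B2 on veins, differed less. It had 71.6, 75.8 and 67.2 CPM in EpiLC, 99, 106 and 97.9 in aEpiLC and 129, 78.9 and 70.2 in pEpiLC, with aEpiLC above EpiLC by 0.50 ± 0.07 (adjusted p = 4.41e-05), under the limit on size, and pEpiLC overlapping both. Epha3, Epha4, Epha10 and Ephb3 were called in no comparison, and Epha5 was tested in pEpiLC against aEpiLC alone, where it was not called.

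All 8 ephrins were tested in every comparison. In pEpiLC against EpiLC all 8 log2 fold changes were positive, from 0.10 to 2.29, and 4 were called. That is 50%, beside 15.8% of all genes. Without pEpiLC replicate 1, 7 of the 8 were positive and 3 were called, since Efna1 turned from 0.22 to -0.66 (adjusted p = 0.0837) and Efna5 was no longer called. In aEpiLC 1 was called, the same 12.5% as among all genes, and between the later states 2 were called higher in pEpiLC (25%, beside 7.29%). The summed level of the family was 71.3 to 79.7 CPM in EpiLC, 91.6 to 108 in aEpiLC and 102 to 162 in pEpiLC.

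Efna5 (chr17:62604184-62881317), a GPI-anchored ligand of EphA receptors, was called in both later states. It had 1.91, 2.07 and 2.20 CPM in EpiLC, 8.91, 7.06 and 7.82 in aEpiLC and 14.6, 3.04 and 4.0 in pEpiLC. The aEpiLC libraries lay together at about the same level, whereas in pEpiLC replicate 1 was far above the others. The log2 fold change was 1.94 ± 0.17 in aEpiLC (adjusted p = 1.27e-06) and 1.83 ± 0.58 in pEpiLC (adjusted p = 0.0361), and without replicate 1 the latter was 0.79 and no longer called. Then Efna5 was called lower in pEpiLC than in aEpiLC, by -1.17 (adjusted p = 9.68e-04), where the 6 libraries gave -0.14 ± 0.54 (adjusted p = 0.894). The call in pEpiLC against EpiLC was also lost without any single EpiLC library, with an adjusted p of up to 0.111.

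Efna3, Efnb1 and Efnb3 were called in pEpiLC. Efnb1 (chrX:99136130-99148991), an X-linked transmembrane ephrin that sets cell boundaries, had 1.03, 1.32 and 1.05 CPM in EpiLC, 0.938, 0.720 and 1.20 in aEpiLC and 8.53, 3.95 and 3.91 in pEpiLC, above all other libraries. It rose by 2.29 ± 0.37 against EpiLC (adjusted p = 0.00255) and 2.52 ± 0.39 against aEpiLC (adjusted p = 0.00656), and by 1.82 and 2.05 without replicate 1. Efna3 (chr3:89313899-89322965), another GPI-anchored ephrin, had 6.62, 6.83 and 5.45 CPM in EpiLC, 5.02, 4.36 and 5.84 in aEpiLC and 60.8, 11.8 and 13.8 in pEpiLC. All pEpiLC libraries exceeded the rest, and replicate 1 did so by the widest margin. Its log2 fold changes of 2.21 ± 0.62 and 2.51 ± 0.63 (adjusted p = 0.0226 and 0.0352) were 1.05 and 1.34 without replicate 1, still called, but the adjusted p reached 0.0845 without an EpiLC library and 0.135 without an aEpiLC library. Efnb3 had 2.43, 2.12 and 2.29, 3.05, 4.99 and 4.0 and 7.91, 4.82 and 5.19 CPM in the 3 states and was called in pEpiLC against EpiLC (1.41 ± 0.24, adjusted p = 0.00302).

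The other ephrins were not called. Efna4, the ephrin with the highest level per kb, had 13.1, 13.1 and 13.5 CPM in EpiLC, 14.4, 12.4 and 14.9 in aEpiLC and 25.8, 16.6 and 16.1 in pEpiLC, where every library was above the rest by a log2 fold change of 0.58 ± 0.19 against EpiLC (adjusted p = 0.0387). Efnb2, the arterial partner of Ephb4, had 44, 38.7 and 46.8, 67.9, 52.7 and 56.1 and 28.8, 53.5 and 54.1 CPM, and its aEpiLC libraries were above those of EpiLC by 0.45 ± 0.10 (adjusted p = 0.00190). Efna1, Efna3 and Efna4 lie next to each other on chromosome 3 with gaps of 32.8 and 10.4 kb. Of these neighbours Efna3 alone was called, and Efna1 had 3.96, 1.04 and 1.19 CPM in pEpiLC against 1.54, 1.79 and 2.07 in EpiLC.

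**Figure D3:**
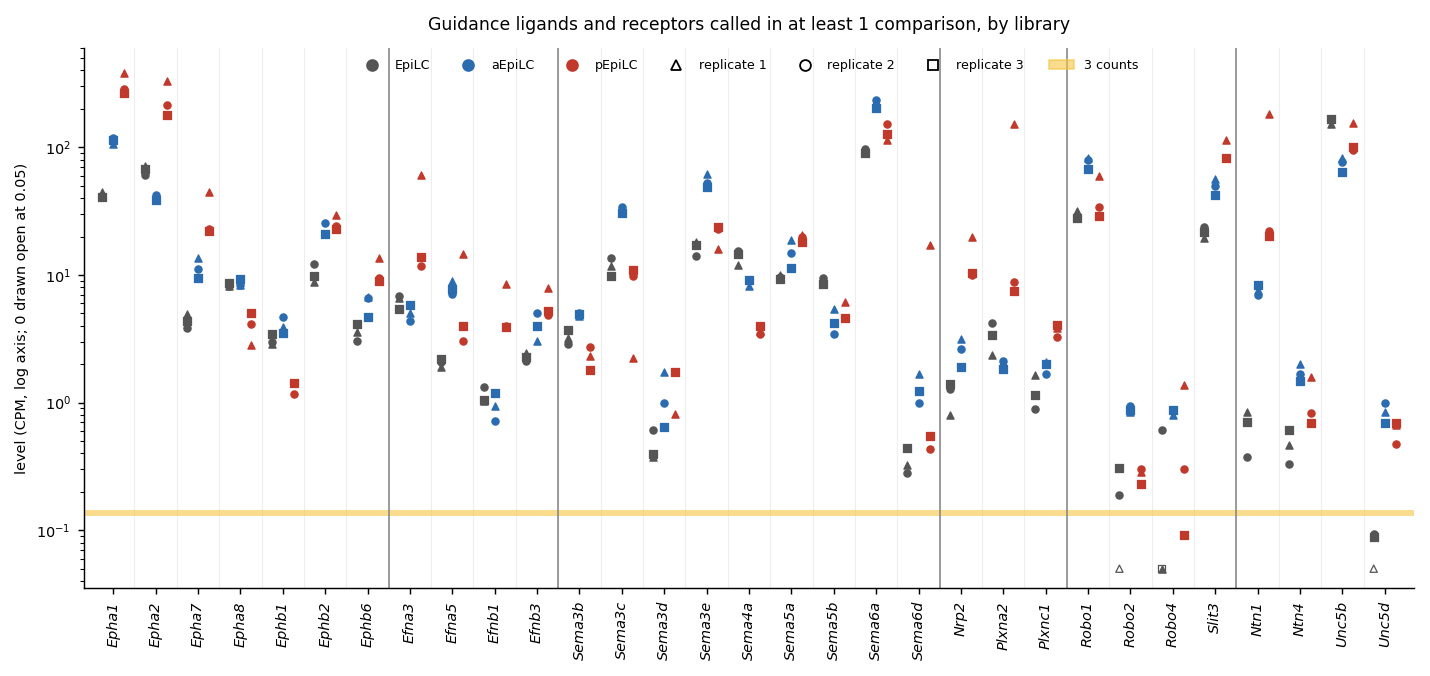
Level in each of the 9 libraries (CPM, log axis, values of 0 drawn open at 0.05) of the 31 members called in at least 1 comparison, by family between the grey lines, with colours for states, shapes for replicates and a band at the CPM of 3 counts. Replicate 1 of pEpiLC (red triangles) sits far above the other pEpiLC libraries for Efna3, Sema6d, Plxna2 and Ntn1, while for Epha1, Epha2 and Slit3 all pEpiLC libraries lie above EpiLC.

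Semaphorins moved in both directions. Of 18 tested, 5 were called higher and 1 lower in aEpiLC than in EpiLC (33.3%, beside 12.5% of all genes), where 11 log2 fold changes were positive and 7 negative, with a median of 0.26. In pEpiLC against EpiLC 2 were called higher and 1 lower, a share of 16.7% that is near the 15.8% of all genes. Between the later states 4 were called, all of them lower in pEpiLC (22.2%, beside 7.29%). Their summed level was 312 to 323 CPM in EpiLC, 480 to 539 in aEpiLC and 311 to 341 in pEpiLC, with aEpiLC above both others, and Sema6a made up 205 to 233 CPM of the sum in aEpiLC and 90.6 to 97.8 in EpiLC. The summed level of 8 neuron markers, Tubb3 and Stmn2 foremost, was also highest in aEpiLC (289 to 319 CPM, against 131 to 143 in EpiLC and 71.3 to 116 in pEpiLC), and its part in these differences was not tested. The summed level of 8 neural progenitor markers overlapped between EpiLC and aEpiLC (40.6 to 53.4 and 44.0 to 61.7 CPM) and was 7.05 to 17.7 CPM in pEpiLC. A sum can hide changes of single markers, and the study reports by qRT-PCR that aEpiLC culture induced Sox1 and Pax6.

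Class 3 semaphorins are secreted and act at a distance. Sema3e (chr5:14025276-14256689), which can bind Plxnd1 without a neuropilin, had 18, 14 and 17.1 CPM in EpiLC, 61.5, 52.4 and 49.2 in aEpiLC and 15.9, 22.7 and 23.7 in pEpiLC. The aEpiLC libraries stood above all others, and EpiLC and pEpiLC overlapped. Its log2 fold change was 1.73 ± 0.11 for aEpiLC against EpiLC (adjusted p = 5.36e-08) and -1.39 ± 0.16 for pEpiLC against aEpiLC (adjusted p = 0.00197). Sema3c (chr5:17574281-17730268), known for its role in the outflow tract of the heart, was also highest in aEpiLC, with 11.7, 13.7 and 9.76 CPM in EpiLC, 30.5, 33.9 and 30.5 in aEpiLC and 2.24, 9.86 and 11 in pEpiLC, and its EpiLC and pEpiLC libraries overlapped. It rose by 1.44 ± 0.12 in aEpiLC (adjusted p = 5.47e-07) and was lower in pEpiLC than in aEpiLC by -2.03 ± 0.46 (adjusted p = 0.0255), or by -1.59 without replicate 1, the lowest library. That last call was lost without any single aEpiLC library, with an adjusted p of up to 0.0954.

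Sema3d was low, with 0.373, 0.613 and 0.395 CPM in EpiLC, 1.74, 0.990 and 0.644 in aEpiLC and 0.810, 1.74 and 1.75 in pEpiLC, and was called in both later states by 1.28 ± 0.43 (adjusted p = 0.0268) and 1.65 ± 0.41 (adjusted p = 0.0143). Leaving out a library raised these adjusted p to 0.160 without aEpiLC replicate 1 and 0.0617 without EpiLC replicate 3. Sema3b, a class 3 ligand on chromosome 9, had 3.22, 2.88 and 3.69, 4.79, 5.04 and 4.97 and 2.34, 2.74 and 1.79 CPM and was lower in pEpiLC than in aEpiLC by -1.10 ± 0.21 (adjusted p = 0.0135, up to 0.0668 without an aEpiLC library). Sema3a, Sema3c, Sema3d and Sema3e share a stretch of 5.35 Mb of chromosome 5 (chr5:12383385-17730268). Of these neighbours, 3 were called higher in aEpiLC than in EpiLC, and Sema3a, at 0.466, 0.236 and 0.527 CPM in EpiLC and 0.141, 0.315 and 0.368 in aEpiLC, was too low to be tested there.

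Among membrane-bound semaphorins, Sema6a (chr18:47235598-47368870), a transmembrane ligand of Plxna2 and Plxna4, was the most abundant. It had 93.6, 97.8 and 90.6 CPM in EpiLC, 232, 233 and 205 in aEpiLC and 113, 151 and 127 in pEpiLC, and no states overlapped. It rose by 1.25 ± 0.07 in aEpiLC (adjusted p = 1.34e-08), while in pEpiLC it lay between the others (0.50 ± 0.10 against EpiLC and -0.78 ± 0.11 against aEpiLC, both short of the limit on size). Sema4a (chr3:88435959-88461182), best known from immune cells, fell in order. Its values were 12, 15.4 and 14.5 CPM in EpiLC, 8.16, 9.09 and 9.06 in aEpiLC and 3.67, 3.48 and 4.0 in pEpiLC, without overlap between states. It changed by -1.89 ± 0.15 on the log2 scale in pEpiLC against EpiLC (adjusted p = 1.77e-04) and -1.24 ± 0.15 against aEpiLC (adjusted p = 0.00211).

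Class 5 semaphorins, which carry thrombospondin repeats, moved apart. Sema5b had 8.49, 9.43 and 8.57 CPM in EpiLC, 5.40, 3.46 and 4.23 in aEpiLC and 6.10, 4.56 and 4.60 in pEpiLC, with EpiLC above both later states. It was called lower in aEpiLC by -1.02 ± 0.17 (adjusted p = 2.59e-04), a size that fell under the limit without aEpiLC replicate 2 or 3 or EpiLC replicate 2 (lowest size -0.87). Sema5a had 9.98, 9.71 and 9.27, 18.6, 15 and 11.4 and 20.4, 19.7 and 18 CPM and was called higher in pEpiLC than in EpiLC by 1.03 ± 0.11 (adjusted p = 4.59e-04), again close to the limit on size, since it was 0.99 without replicate 1. Sema6d had 0.326, 0.283 and 0.439 CPM in EpiLC and 1.69, 0.990 and 1.24 CPM in aEpiLC, without overlap. In pEpiLC it had 17.1, 0.435 and 0.552 CPM, so its direction against aEpiLC turned on replicate 1. The log2 fold change was 2.20 ± 1.26 (adjusted p = 0.279) with that library and -1.39 (adjusted p = 0.0361) without it.

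Sema4c and Sema4d, transmembrane ligands of Plxnb2 and Plxnb1, came next to Sema6a in level per kb among semaphorins. Sema4d had 53.7, 53.6 and 54.5 CPM in EpiLC, 65.6, 69.2 and 59.2 in aEpiLC and 28.5, 42.5 and 37.1 in pEpiLC, the lowest state without overlap, by -0.56 ± 0.13 against EpiLC and -0.84 ± 0.14 against aEpiLC (adjusted p = 0.0127 and 0.00919). Both changes were under the limit on size. Sema4c had 29.5, 33.1 and 34.5, 40.5, 38.2 and 37.2 and 42.9, 27.7 and 24.3 CPM, with pEpiLC overlapping both other states. Sema4b, Sema4f, Sema4g, Sema6b, Sema6c and Sema7a were also called in no comparison. Sema3f was called lower in pEpiLC than in EpiLC when replicate 1 was left out (-1.06, adjusted p = 4.13e-05, against -0.48 ± 0.35 and 0.302 with it).

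Plexins are the signalling receptors of semaphorins, and the abundant ones showed small fold changes. Plxna1 (chr6:89316314-89362620) had 290.4, 264 and 297 CPM in EpiLC, 269, 279 and 231 in aEpiLC and 304, 259.7 and 275 in pEpiLC. The 3 states overlapped, and the log2 fold changes were -0.13 ± 0.07 in aEpiLC and 0.00 ± 0.08 in pEpiLC against EpiLC. Plxnb1 had 135, 115 and 127, 153, 156 and 129 and 124, 126 and 127 CPM. Plxnb2, which binds class 4 semaphorins as Plxnb1 does, had 126, 113 and 119.6, 157, 167 and 154 and 140.3, 129.5 and 134 CPM, and its largest change was 0.42 ± 0.06 in aEpiLC against EpiLC (adjusted p = 1.17e-04). Plxna3 was lower in both later states than in EpiLC by -0.45 ± 0.09 and -0.39 ± 0.10 (adjusted p = 0.00113 and 0.0167), under the limit on size, and Plxnd1 overlapped between all states.

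Of 9 plexins and neuropilins tested, 1 was called in aEpiLC against EpiLC, which is 11.1% and no more than the 12.5% of all genes. In pEpiLC 3 were called against EpiLC (33.3%, beside 15.8%) and 2 against aEpiLC (22.2%, beside 7.29%), and all calls were higher. Nrp2 (chr1:62703285-62818695), a co-receptor of class 3 semaphorins and of VEGF-C, was called each time. It had 0.793, 1.27 and 1.41 CPM in EpiLC, 3.14, 2.61 and 1.89 in aEpiLC and 19.8, 9.91 and 10.4 in pEpiLC, and no states overlapped. Nrp2 rose by 1.13 ± 0.29 on the log2 scale in aEpiLC (adjusted p = 0.00640) and 3.54 ± 0.36 in pEpiLC (adjusted p = 4.20e-04) against EpiLC, and 2.39 ± 0.33 between them (adjusted p = 0.00392). The last was 2.00 without replicate 1, while the change in aEpiLC was 0.96 without replicate 1 of aEpiLC and 0.92 without replicate 1 of EpiLC, and was then not called.

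Plxna2 (chr1:194618218-194816869), a receptor of Sema6a, was carried largely by a single library. It had 2.38, 4.20 and 3.38 CPM in EpiLC, 2.06, 2.11 and 1.84 in aEpiLC and 153, 8.74 and 7.49 in pEpiLC. All pEpiLC libraries were above all others, and replicate 1 was above its own state by more than 10-fold. Plxna2 rose by 4.11 ± 1.23 on the log2 scale against EpiLC (adjusted p = 0.0287) and 4.81 ± 1.28 against aEpiLC (adjusted p = 0.0418). Without replicate 1 it was 1.32 (adjusted p = 8.73e-05) and 2.02 (adjusted p = 1.24e-05), and without an EpiLC or an aEpiLC library the adjusted p rose to 0.103 and 0.148. Plxnc1, the receptor of Sema7a, was steadier, with 1.63, 0.896 and 1.14 CPM in EpiLC, 2.06, 1.66 and 2.02 in aEpiLC and 3.81, 3.26 and 4.04 in pEpiLC. Its levels went from EpiLC over aEpiLC to pEpiLC without overlap, and it was called in pEpiLC against EpiLC (1.62 ± 0.27, adjusted p = 0.00289).

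In the repulsive Slit pathway, Slit3, Robo1, Robo2 and Robo4 were called higher in aEpiLC than in EpiLC, 4 of 7 tested (57.1%, beside 12.5% of all genes). Robo2 passed the filter on low counts through aEpiLC libraries alone, and Robo4 had 1 EpiLC library that reached the required CPM. The share is therefore not read as a result. Robo2 and Robo4 had enough counts for a test in aEpiLC against EpiLC but not in pEpiLC against EpiLC, where Slit3 alone was called, so the counts of the comparisons cannot be set against each other. The summed level of the 7 Slit and Robo genes was 53.7 to 57.9 CPM in EpiLC, 118 to 148 in aEpiLC and 118 to 197 in pEpiLC. Slit3 (chr11:35121224-35708507), the main Slit here, had 19.4, 23.7 and 21.7 CPM in EpiLC, 56.9, 49.9 and 42.5 in aEpiLC and 113, 82.7 and 82.6 in pEpiLC. States did not overlap. It rose by 1.20 ± 0.11 (adjusted p = 1.30e-06) and 2.13 ± 0.15 (adjusted p = 1.05e-04) against EpiLC, and the difference of 0.90 ± 0.16 between the later states was just under the limit on size (adjusted p = 0.0102).

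Robo1 (chr16:72308306-73046095), its receptor, had 31.9, 28.7 and 28.1 CPM in EpiLC, 82.9, 78.9 and 67.6 in aEpiLC and 60.0, 34.1 and 29.1 in pEpiLC. The aEpiLC libraries were above all others, and EpiLC overlapped pEpiLC. The log2 fold change in aEpiLC was 1.37 ± 0.08 (adjusted p = 5.23e-08), and that of pEpiLC against aEpiLC was -0.90 ± 0.25 (adjusted p = 0.0499), or -1.27 (adjusted p = 5.54e-06) and then called without replicate 1. So the ligand was highest in pEpiLC and the receptor in aEpiLC. Robo2, the neighbour of Robo1 on chromosome 16 at a distance of 0.846 Mb, was near the detection limit in EpiLC (0, 0.189 and 0.308 CPM) and in pEpiLC (0.286, 0.304 and 0.230 CPM) and had 0.845, 0.945 and 0.874 CPM in aEpiLC. The aEpiLC libraries were above all others. Robo4, a receptor known from endothelium, had 0.0466, 0.613 and 0, 0.798, 0.855 and 0.874 and 1.38, 0.304 and 0.0919 CPM, and its call in aEpiLC (1.94 ± 0.71, adjusted p = 0.0375) was lost in 7 of 14 alternative analyses. Its size rests on EpiLC replicate 2, without which the log2 fold change was 4.90, while without EpiLC replicate 3 it was 1.34. The 7 endothelial markers measured summed to 18.8 to 24.2 CPM in EpiLC, 16.4 to 21.8 in aEpiLC and 6.13 to 10.4 in pEpiLC. Most of this was Pecam1 (9.28, 12.6 and 15.1 CPM in EpiLC, 1.69, 1.93 and 1.66 in aEpiLC) and Tek, which was highest in aEpiLC (7.23, 7.82 and 6.64, 14.7, 13.7 and 12.6 and 3.86, 2.35 and 3.77 CPM in the 3 states), while Cdh5 and Erg had at most 0.138 and 0.315 CPM in any library. What part this had in the values of Robo4 was not tested.

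Slit1 and Slit2 were not called. Slit1 had 0.793, 1.46 and 1.14 CPM in EpiLC, 2.86, 1.66 and 1.66 in aEpiLC and 2.48, 1.61 and 2.48 in pEpiLC, above EpiLC in both later states with log2 fold changes under 1. Slit2 had 3.26, 2.69 and 1.89, 3.38, 4.86 and 3.86 and 18.4, 3.91 and 3.77 CPM, and its log2 fold change of 1.76 ± 0.64 in pEpiLC against EpiLC (adjusted p = 0.0570) was 0.58 without replicate 1. Robo3, which lies 553 bp from Robo4 on chromosome 9, stayed below 1 CPM in every library.

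Ntn1 (chr11:68209364-68400823), the secreted netrin that draws commissural axons to the midline, had the largest log2 fold change against EpiLC in both later states among members above the detection limit in EpiLC. It had 0.840, 0.377 and 0.703 CPM in EpiLC, 7.55, 6.93 and 8.41 in aEpiLC and 184, 21.9 and 20.1 in pEpiLC. States did not overlap, and replicate 1 of pEpiLC was far above its own state. Ntn1 rose by 3.56 ± 0.24 on the log2 scale in aEpiLC (adjusted p = 1.20e-07) and 6.89 ± 1.17 in pEpiLC (adjusted p = 0.00321) against EpiLC, and 3.30 ± 0.88 between the later states (adjusted p = 0.0418). Without replicate 1 the last 2 values were 5.05 (adjusted p = 6.88e-11) and 1.47 (adjusted p = 6.59e-06), and the adjusted p of the last rose to 0.150 without an aEpiLC library.

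Its receptors were unevenly present. Dcc, the attractive receptor, was not tested in any comparison and had at most 0.322 CPM in any library. Unc5b (chr10:60762593-60831581), a repulsive netrin receptor also known from vessels, was the most abundant, with 151, 167 and 166 CPM in EpiLC, 82.1, 77.1 and 64.4 in aEpiLC and 156, 94.7 and 101 in pEpiLC. The aEpiLC libraries were below all others, by -1.11 ± 0.08 against EpiLC (adjusted p = 2.63e-07). Unc5d was at or below 3 counts in every EpiLC library (0, 0.0943 and 0.0879 CPM) and had 0.845, 0.990 and 0.690 CPM in aEpiLC and 0.667, 0.478 and 0.689 in pEpiLC, at least 5.95-fold and 4.32-fold higher by the mean over the CPM of 3 counts. Unc5a overlapped between all states, and Neo1, a further netrin receptor outside the rule, had 43.2, 46.8 and 43.3, 52.8, 47.4 and 40.4 and 68.4, 54.2 and 48.9 CPM.

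Of the other netrins, Ntn4, which binds laminins, had 0.466, 0.330 and 0.615 CPM in EpiLC, 2.02, 1.66 and 1.47 in aEpiLC and 1.57, 0.826 and 0.689 in pEpiLC. Both later states were above EpiLC, and the call was made in aEpiLC (1.85 ± 0.34, adjusted p = 6.14e-04). Ntn3 had 7.51, 5.75 and 7.12, 5.96, 6.16 and 5.56 and 5.48, 7.04 and 5.24 CPM, overlapping throughout. Ntn3 shares exon bases with Tbc1d24 on its own strand, which had a mean of 11.3, 10.9 and 15.3 CPM in the 3 states, and with BC028777 on the opposite strand, so its level may hold reads of those genes and was not set against that of Ntn1.

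Set side by side, pEpiLC against aEpiLC had higher Epha1, Epha2, Epha7, Efna3, Efnb1, Nrp2, Plxna2 and Ntn1, and lower Epha8, Ephb1, Sema3b, Sema3c, Sema3e, Sema4a and Robo2. Without replicate 1, 13 of these 15 were still called, Epha7 and Epha8 no longer, and Efna5, Sema6d, Robo1, Robo4 and Ntn4 were then called lower in pEpiLC, for 7 higher and 11 lower of 60 tested, where 2.51% and 4.9% of all genes were called in the same fit. In pEpiLC against EpiLC 17 of the 20 calls were still made without it. Those lost were Efna5, Epha8 and Sema5a, and Plxnb3 and Sema3f were called lower in addition (7.05% of all genes were called higher and 8.33% lower in that fit). In replicates 2 and 3 of pEpiLC, Plxnb3 had 0.0435 and 0 CPM and Robo4 0.304 and 0.0919 CPM. These values are under the CPM that the filter requires, so both genes passed through the higher state alone and had to differ. Their calls without replicate 1 enter the counts but are not read as results. Some members that were not called moved with replicate 1 as well, since the log2 fold change against EpiLC went from 0.78 to -0.03 for Epha4, from 1.18 to 0.08 for Plxna4 and from 1.45 to 0.03 for Sema7a. Streak and mesoderm markers moved with the same library (2674 CPM in replicate 1, 519 and 507 in the others), and their part in the values of the members was not tested. Pdgfra, which is on the fibroblast list, had 51.6 CPM in replicate 1 and 2.13 and 2.11 in replicates 2 and 3. The summed level of 6 fibroblast markers was 20.1 to 22.9 CPM in EpiLC, 21.2 to 24.8 in aEpiLC and 15.5 to 71.3 in pEpiLC. The highest sum in pEpiLC was that of replicate 1, and most of it was Pdgfra. Markers of extraembryonic endoderm, 6 of them measured, summed to 98.6 to 107, 239 to 259 and 121 to 162 CPM, mostly Sparc and Col4a1, with Apoa1 at most at 0.282 CPM. The 8 markers of naive pluripotency summed to 36.4 to 39.8, 20 to 21.7 and 23.9 to 28.1 CPM. What part these differences had in the members' values was not tested.

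**Figure D4:**
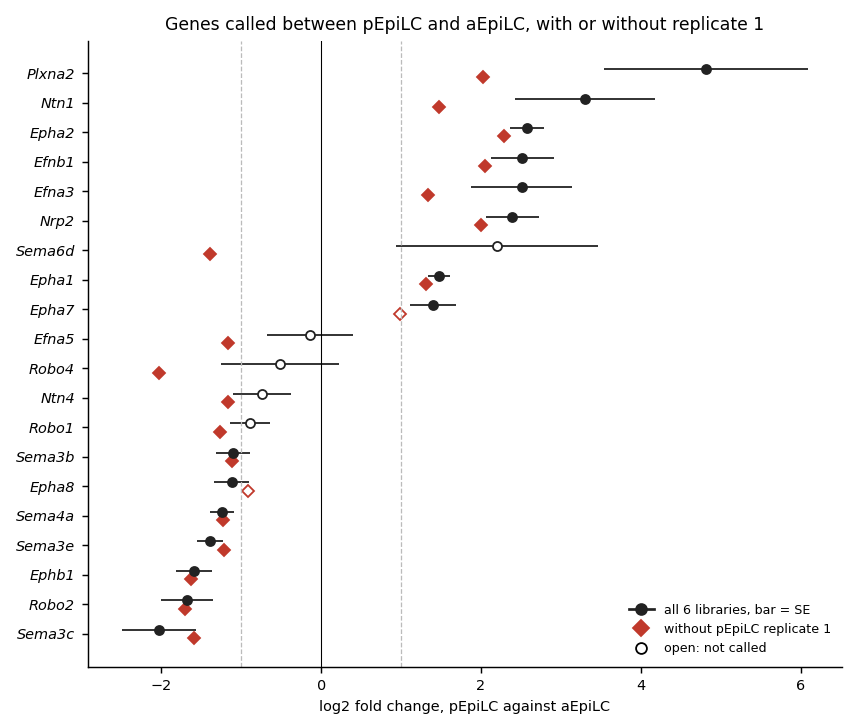
Log2 fold change of pEpiLC against aEpiLC for the members called with all 6 libraries (black, bars of 1 standard error) or without pEpiLC replicate 1 (red), with open symbols where not called and dashed lines at 1 in size. Plxna2 moved from 4.81 to 2.02 and Ntn1 from 3.30 to 1.47 without that library, and Sema6d changed sign.

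Members under the filter are accounted for by their values. Epha6, Sema3g, Plxnb3, Dcc, Ntn5 and Unc5c were tested in no comparison with all 6 libraries, and the highest of them in any library was Plxnb3 with 0.801 CPM. Plxnb3 had 0.373, 0.801 and 0.703 CPM in EpiLC and was at or below 3 counts in all libraries of aEpiLC and pEpiLC, which makes EpiLC at least 4.45-fold and 4.38-fold higher. Nrp1, the other neuropilin, was tested in pEpiLC against aEpiLC alone and had 0.140, 0.141 and 0.308 CPM in EpiLC, 1.08, 0.405 and 0.690 in aEpiLC and 1.91, 0.478 and 0.414 in pEpiLC, with both later states above EpiLC. Plxna4 had 0.700, 0.613 and 0.483, 0.422, 0.405 and 0.138 and 2.81, 0.913 and 0.322 CPM and was not called.

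A list of 53 guidance effectors and co-receptors, which carry these signals to the cytoskeleton or modify them, was described in the same way, and 52 of them were tested. In aEpiLC against EpiLC 13 were called, all of them higher (25%, beside 12.5% of all genes). They were the collapsin response mediators Dpysl2, Dpysl3 and Dpysl4, Mical2, Farp1, Chn2, Vav3, Ablim1, Ablim3, Pak1, Rgma, Dscam and L1cam. Of these, Pak1 lost the call without aEpiLC replicate 1 and L1cam without EpiLC replicate 1, with log2 fold changes of 0.99. In pEpiLC against EpiLC 10 were called higher and 1 lower (21.2%, beside 15.8%), of which 7 calls were still made without pEpiLC replicate 1. The others had log2 fold changes under 1 without it, 0.90 for Adam10, 0.63 for Dpysl3, 0.60 for L1cam and 0.91 for Tiam1, and that of Ablim1 went from 3.21 to 1.95. The calls of Dpysl3 and L1cam were also lost without any single EpiLC library. In pEpiLC against aEpiLC 2 were called higher and 5 lower (13.5%, beside 7.29%). Their median log2 fold change was 0.36 in both comparisons with EpiLC and -0.07 between the later states. Rgma, a ligand of Neo1, had 1.07, 1.56 and 1.93 CPM in EpiLC, 8.35, 8.55 and 8.05 in aEpiLC and 14.1, 10.1 and 7.72 in pEpiLC, above EpiLC in both later states by 2.44 ± 0.20 and 2.82 ± 0.30 (adjusted p = 5.90e-07 and 5.19e-04).

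Nrcam, a cell adhesion molecule that partners neuropilins, had 12.4, 11.4 and 11.1 CPM in EpiLC, 25.6, 16.4 and 15.1 in aEpiLC and 96, 116 and 119.8 in pEpiLC, which was above all others by 3.27 ± 0.11 and 2.54 ± 0.20 (adjusted p = 4.64e-06 and 3.61e-04). Adam10, the protease that sheds ephrins, had 18.3, 16.2 and 16.9, 20.5, 18.4 and 17.8 and 61, 31 and 31.9 CPM and was the other gene of the list called higher in pEpiLC than in aEpiLC (1.13 ± 0.26, adjusted p = 0.0263). Without pEpiLC replicate 1 this was 0.74 and not called, and without any single aEpiLC library the adjusted p was 0.0829 to 0.104, which left it uncalled too. Crmp1, which acts downstream of Sema3a, had 98.2, 102 and 104, 159, 149 and 152 and 60.0, 73.9 and 65.3 CPM and was called lower there (-1.21 ± 0.09, adjusted p = 2.67e-04), as were Mical2, Rnd3, Vav3 and Ablim3. Of these, Mical2 and Vav3 lost the call without any single aEpiLC library, Ablim3 without aEpiLC replicate 2 or 3, Rnd3 without aEpiLC replicate 1 or pEpiLC replicate 1, and Vav3 also without pEpiLC replicate 2. Trio, which acts below Dcc, had 354, 357 and 365 CPM in EpiLC, 260.2, 319 and 224 in aEpiLC and 86.1, 181 and 158 in pEpiLC. It was the gene of the list called lower in pEpiLC than in EpiLC (-1.32 ± 0.23, adjusted p = 0.00382).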

How the data were processed

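Bulk RNA-seq was made from 3 states of cultured mouse cells, with 3 libraries each. The authors mapped reads to GRCm38 with STAR 2.7.9a, estimated counts with RSEM 1.3.1 and deposited expected counts per gene symbol without normalization. Read cleaning, gene annotation and strand use are not given in the sources used here. RSEM shares ambiguous reads among genes, so 20.2% of values were not whole, and all were rounded, by at most 0.5 counts. Values of near-identical sequences are therefore estimates.

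Each comparison used its own 6 libraries in edgeR 4.0.16 (R 4.3.3) with TMM factors, filterByExpr and the quasi-likelihood test, and p-values were adjusted by Benjamini-Hochberg over all genes tested. Calls needed an adjusted p below 0.05 and a log2 fold change of at least 1 in size. The standard error is the absolute fold change over the root of F. Where every library of a state had at most 3 counts, the fold was bounded from below by dividing the opposite mean by the CPM that 3 counts give. Positions and exon lengths came from GENCODE vM21 (GRCm38), where all 69 members matched 1 gene. Promoter windows came from RefSeq. DESeq2 1.42.0 and limma 3.58.1 gave alternatives. The procedure was tested on simulated data.

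Every called member may be named. Values per library are given for up to 10 called members per comparison with the largest fold changes and a mean of at least 5 CPM, and for the 3 members of each family with the highest CPM per kb. Further members were shown as examples, known ligand and receptor pairs or neighbours. The members, the effector list and the marker lists (epiblast, naive pluripotency, streak and mesoderm, neural progenitor, neuron, endothelium, extraembryonic endoderm, fibroblast) were chosen with earlier results of these data known. The markers Emcn, Afp, Ttr, Postn and Lum were not analysed here. Alternatives were other size factors, tests, filters, samples and thresholds, the replicate number as a block, and leaving out each library. Replicates of a state differed by more than sampling noise (chi-square per degree of freedom 4.25 to 37.0).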

Additional observations from a re-analysis of the deposited data

How the results depend on the processing

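No called member changed direction under any alternative that tested it. Of the 19, 20 and 15 calls in aEpiLC against EpiLC, pEpiLC against EpiLC and pEpiLC against aEpiLC, 10, 12 and 7 were made under every alternative, and 15, 14 and 7 whichever single library was left out. Counts of calls kept within 1.5 times under RLE size factors, DESeq2, the likelihood ratio test, limma voom with quality weights, no filter and all 9 libraries in one fit. Single calls were nonetheless lost: in aEpiLC against EpiLC Sema3d and Robo4 with DESeq2, and these and Sema6d with all 9 libraries in one fit, in pEpiLC against aEpiLC Robo2 under both, and with limma Epha8, Efna5 and Sema5a in pEpiLC against EpiLC and Epha8 and Plxna2 in pEpiLC against aEpiLC. In aEpiLC against EpiLC the 17 members called higher became 10 with at least 10 counts required in every library, since 50 rather than 60 were tested, and 30 on the adjusted p alone. With the adjusted p alone, 9 rather than 2 were called lower there, 8 rather than 3 in pEpiLC against EpiLC, and 12 rather than 7 in pEpiLC against aEpiLC. With 1 library left out, 14 to 18 members were higher and 1 to 3 lower in aEpiLC against EpiLC, 12 to 21 higher and 3 to 5 lower in pEpiLC against EpiLC, and 4 to 9 higher and 3 to 11 lower in pEpiLC against aEpiLC. In the last comparison each aEpiLC library left out gave 3 lower calls, and pEpiLC replicate 1 left out gave 11. These fits had fewer samples. Leaving out single libraries for the effector list was added after seeing the data, and without pEpiLC replicate 1, 7 of its 11 calls against EpiLC and 5 of its 7 against aEpiLC were still made, while without an aEpiLC library 3 of the 7 were called each time, of which Crmp1 and Nrcam whichever library was left out.

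The states share replicate numbers. Deviations from the state means of libraries with the same number correlated at -0.060 to 0.021 between EpiLC and aEpiLC, 0.015 to 0.034 between EpiLC and pEpiLC and 0.062 to 0.172 between aEpiLC and pEpiLC, so the numbers were not taken to pair samples. Of the later states, each aEpiLC library correlated best with its own number in pEpiLC. With the replicate number as a block, 17 members were called higher and 2 lower in aEpiLC against EpiLC, 16 and 3 in pEpiLC against EpiLC, and 7 and 7 in pEpiLC against aEpiLC. The calls lost were Efna5 and Plxna2 against EpiLC (adjusted p = 0.0567 and 0.0876) and Ntn1 against aEpiLC (adjusted p = 0.0559) in pEpiLC, by edgeR's quasi-likelihood test.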
